A study of Homo sapiens with 4 samples.

Results

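The genes of cholesterol and fatty acid synthesis were followed in HuCCT1, a human cell line derived from a cholangiocarcinoma, a cancer of the bile duct. The set was named from pathway knowledge, with earlier results of these data known, and holds 33 genes. A gene was measured when a row of the array carried that gene's symbol and no other, which held for 31 of the 33, each with 1 row, out of 18377 genes in all. FDFT1 had no such row and the row of HSD17B7 also carried the symbol of its pseudogene, so both were not analysed here. Of the 31 genes, 16 make up the sterol synthesis arm, 6 regulate the pathway or move sterols, and 9 form the fatty acid arm. All 31 lay at or above the median of every array.

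The 4 conditions were profiled with 1 Affymetrix Human Gene 1.0 ST array each. The cells were untreated, given VPA, given GEM, or given both (GEM_VPA, called the combination below). VPA and GEM are read with their usual meanings in cancer cells, valproic acid, which inhibits histone deacetylases, and gemcitabine, a nucleoside analogue. No dose or exposure time is named in the labels used here. With 1 array per condition there is no replicate error and no p-value for a single comparison, and each value below is a log2 intensity or a log2 ratio between 2 arrays. A gene was counted as different when its ratio was at least 2 or at most 0.5, the limits the series states, and its higher value reached that array's median.

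Cholesterol is built from acetyl-CoA through mevalonate, isoprenoid diphosphates, squalene and lanosterol. SREBP transcription factors, encoded by SREBF1 and SREBF2, switch these genes on. SCAP carries the SREBPs to the protease that frees them when sterols are scarce, and INSIG proteins hold SCAP in the endoplasmic reticulum when sterols are plentiful. SREBF2 products act mainly on sterol genes and SREBF1 products mainly on fatty acid genes, and INSIG1 is itself an SREBP target.

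The 4 arrays fell into close pairs, which bears on all values that follow. Over all 28869 rows the untreated and combination arrays correlated at 0.996, as did the VPA and GEM arrays, and the other pairs gave 0.984 to 0.987. Over all genes, log2 ratios had a robust SD of 0.15 for the combination over untreated and 0.16 for GEM over VPA, against 0.25 to 0.27 elsewhere. Whether labels of the arrays were exchanged could not be checked, so every ratio is between arrays as labelled. All 6 bile duct epithelial markers lay at or above the median of every array, but KRT7, a duct keratin, was at 9.53 untreated, 11.50 with VPA, 11.14 with GEM and 8.93 with the combination. Of 6 hepatocyte markers, 2 (CPS1 and SERPINA1) lay at or above the median of every array and 3 (ALB, CYP3A4 and F9) below the 25th percentile of rows on all. Of 5 measured leukocyte markers, CD68 lay above every median, at 9.70 to 10.99, and PTPRC below the 25th percentile on all 4 arrays. The summed linear intensity of each marker list was higher on the VPA and GEM arrays than on the untreated and combination arrays. In the order untreated, VPA, GEM and combination, the sums were 43523, 57696, 57823 and 42476 for bile duct epithelium. They were 1266, 1632, 1478 and 1282 for hepatocytes and 1514, 2567, 2672 and 1199 for leukocytes. Such sums weight bright genes and do not show that a list moved as a whole. For VPA over untreated, 5 of 6 bile duct, 4 of 6 hepatocyte and 5 of 5 leukocyte markers were above 0. GEM over untreated gave 5, 2 and 4. In these comparisons CD68 had log2 ratios of 0.94 and 0.93, SERPINA1 0.89 and 0.81, and EPCAM, a duct marker, -0.15 and -0.19. The part of these markers in the results that follow was not tested. Total RNA came from whole cultures, so fewer cells of a kind and less RNA per cell cannot be told apart.

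**Figure D1:**
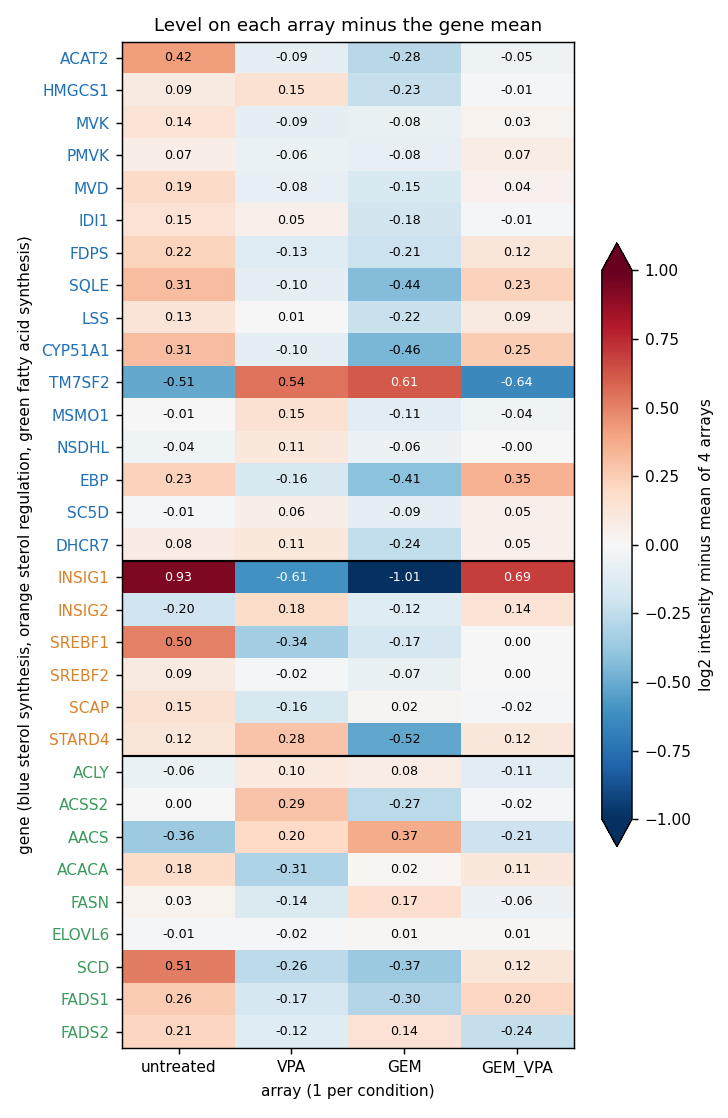
Heat map of the 31 measured genes (vertical axis) on the 4 arrays (horizontal axis); each cell prints the log2 intensity minus the gene's mean over the 4 arrays, and colours are clipped at 1 in either direction. The GEM column is the lowest of the 4 for 14 of the 16 sterol synthesis genes, while TM7SF2 and AACS are high on the VPA and GEM arrays.

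INSIG1, the sterol-sensing brake on SREBP processing, had the widest range of the set. Its log2 intensity was 10.73 on the untreated array, 9.19 with VPA, 8.78 with GEM and 10.49 with the combination. It was low on both arrays with a single drug and high on the untreated and combination arrays. INSIG1 was 2.90-fold lower with VPA than without drug, the rank 21 from the lowest of 11611 genes at level, and 3.85-fold lower with GEM, at rank 10 of 11593. The combination array was 3.26-fold above the GEM array and 2.46-fold above the VPA array for this gene, and its log2 ratio to untreated was -0.24.

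INSIG2, the second INSIG gene, did not follow INSIG1. It stood at 8.66 on the untreated array, 9.05 with VPA, 8.74 with GEM and 9.001 with the combination. Both arrays with VPA were thus above both arrays without it. The log2 ratios were 0.39 for VPA over untreated and 0.26 for the combination over GEM, a pair of comparisons that share no array. Neither reached the 2-fold limit.

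The bases before the start of both INSIG genes, of TM7SF2, the other gene past the limit, and of SREBF2, the only measured gene whose window held a sterol element match, are shown for comparison. They are the 250 bases before the RefSeq start site on GRCh38.p14, all from the plus strand: chr7:155297628-155297877 for INSIG1, chr2:118088221-118088470 for INSIG2 (1 of its 2 listed starts), chr11:65111622-65111871 for TM7SF2 and chr22:41832855-41833104 for SREBF2. Capitals mark matches, on either strand, to TCACNCCAC (sterol regulatory element), CCAAT (the NF-Y box), GGGCGG (the GC box bound by Sp1) and CACGTG (an E-box).
INSIG1 promoter: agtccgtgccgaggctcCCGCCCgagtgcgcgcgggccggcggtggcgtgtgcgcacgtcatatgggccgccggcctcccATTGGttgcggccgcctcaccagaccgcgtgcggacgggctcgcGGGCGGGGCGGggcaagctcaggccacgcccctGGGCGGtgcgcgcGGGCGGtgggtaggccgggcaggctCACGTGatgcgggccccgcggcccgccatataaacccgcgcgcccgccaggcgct
INSIG2 promoter: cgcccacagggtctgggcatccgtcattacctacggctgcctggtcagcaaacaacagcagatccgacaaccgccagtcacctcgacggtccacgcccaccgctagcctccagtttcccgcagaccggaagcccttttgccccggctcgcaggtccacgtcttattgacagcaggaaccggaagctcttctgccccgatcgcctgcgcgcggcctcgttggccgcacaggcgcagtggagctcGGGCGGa
TM7SF2 promoter: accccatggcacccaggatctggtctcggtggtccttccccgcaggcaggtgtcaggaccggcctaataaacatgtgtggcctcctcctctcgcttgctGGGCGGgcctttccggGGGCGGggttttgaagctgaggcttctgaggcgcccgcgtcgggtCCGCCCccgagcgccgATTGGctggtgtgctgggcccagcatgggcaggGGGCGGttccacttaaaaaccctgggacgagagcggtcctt
SREBF2 promoter: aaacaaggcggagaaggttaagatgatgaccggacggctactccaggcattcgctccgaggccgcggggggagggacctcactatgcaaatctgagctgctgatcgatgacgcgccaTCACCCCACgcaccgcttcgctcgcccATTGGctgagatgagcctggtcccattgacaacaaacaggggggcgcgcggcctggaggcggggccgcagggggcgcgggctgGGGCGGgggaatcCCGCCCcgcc

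In the printed stretch INSIG1 held 5 GC boxes, of which a pair overlap by 1 base, with 1 CCAAT box and 1 E-box, whereas INSIG2 held 1 GC box and none of the other motifs. TM7SF2 held 4 GC boxes and 1 CCAAT box, and SREBF2 held 1 sterol element, 1 CCAAT box and 2 GC boxes. Over windows of 300 bases (250 before the start and 50 after), 28 of the 31 genes had at least 1 listed start. ACAT2, SQLE and FASN had none and are left out of the motif counts. CCAAT was found for 20 of these 28 genes, among them 12 of 14 sterol synthesis genes and 5 of 8 fatty acid genes, against 42.2% of the 14210 array genes with a window. GGGCGG was found for 27 of 28 against 65.9%, CACGTG for 4 of 28 against 10.9%, and TCACNCCAC for 1 of 28 against 1.51%. Over all 35116 windows the shares were 34.6%, 45%, 7.26% and 1.13% in the same order. These are letter matches only; binding was not measured, and a match was not related to the array values by any test.

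The other regulators had smaller ratios. SREBF1 was at 10.32 on the untreated array, 9.48 with VPA, 9.65 with GEM and 9.82 with the combination. All 3 drug arrays were below the untreated one, with log2 ratios of -0.84, -0.67 and -0.50. SREBF2 stayed within 0.16 log2 units over the 4 arrays, at 10.34, 10.22, 10.17 and 10.25 in the same order. SCAP, the SREBP escort, ranged from 9.93 with VPA to 10.24 without drug. STARD4, a soluble sterol carrier, was at 9.72 untreated, 9.89 with VPA, 9.09 with GEM and 9.72 with the combination, so that it was low on the GEM array alone. Its log2 ratio of GEM over VPA, -0.80, was rank 83 from the lowest of 11477 genes.

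**Figure D2:**
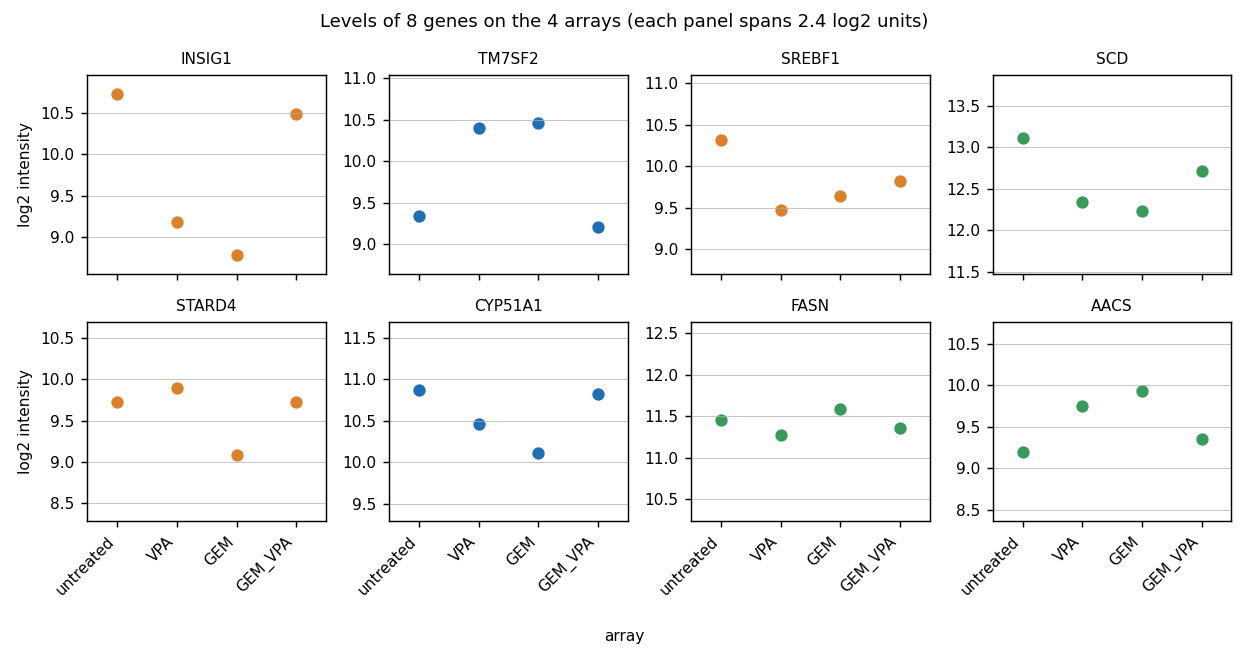
Log2 intensity (vertical axis, each of the 8 panels spanning 2.4 units) of 8 genes on the 4 arrays (horizontal axis), 1 point per array. INSIG1 is low and TM7SF2 high on the VPA and GEM arrays, SREBF1 is below untreated on all drug arrays, and STARD4 is low with GEM alone.

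The sterol synthesis enzymes were lower with GEM than without drug. Of the 16 genes, 15 had a log2 ratio below 0 and the median was -0.33, against a median of -0.04 and a share below 0 of 55.4% over the 11593 genes at level. CYP51A1, the lanosterol demethylase, was at 10.87 untreated, 10.46 with VPA, 10.11 with GEM and 10.82 with the combination. SQLE, the squalene epoxidase, was at 11.52, 11.11, 10.77 and 11.43 in that order. EBP, a sterol isomerase late in the pathway, was at 10.81, 10.41, 10.16 and 10.92. These 3 enzymes shared one pattern, with GEM lowest, VPA next and the combination within 0.12 log2 units of untreated. Their ratios of GEM over untreated were -0.76, -0.74 and -0.64, short of the 2-fold limit.

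The early mevalonate genes were also lower with GEM, at a median of -0.33. ACAT2, the cytosolic thiolase that opens the route, was at 10.32 untreated, 9.81 with VPA, 9.62 with GEM and 9.84 with the combination, so it was lower on every drug array, at -0.70 with GEM. HMGCS1, which makes HMG-CoA, was at 10.63, 10.70, 10.32 and 10.54 in that order and was low with GEM alone. FDPS, the farnesyl diphosphate synthase, was at 10.20, 9.85, 9.77 and 10.10. The kinases MVK and PMVK, the decarboxylase MVD and the isomerase IDI1 had ratios of GEM over untreated of -0.21, -0.15, -0.35 and -0.33. All 7 measured genes of this stretch were below 0 with GEM and 6 were below 0 with VPA.

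Of the later enzymes, LSS, which closes squalene epoxide into lanosterol, and DHCR7, which performs a last reduction, had ratios of -0.35 and -0.33 with GEM and of -0.12 and 0.02 with VPA. MSMO1, NSDHL and SC5D, which act on the sterol nucleus after lanosterol, had ratios between -0.10 and 0.16 for either drug alone. MSMO1 was at 12.20, 12.36, 12.10 and 12.17 on the untreated, VPA, GEM and combination arrays. NSDHL was highest with VPA at 11.54 and within 11.38 to 11.43 on the remaining arrays.

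TM7SF2, a sterol reductase that acts right after CYP51A1, went the other way. It was at 9.34 untreated, 10.40 with VPA, 10.47 with GEM and 9.21 with the combination. It was 2.08-fold higher with VPA and 2.18-fold higher with GEM than without drug, and the combination was 2.39-fold below GEM and 2.28-fold below VPA. TM7SF2 and INSIG1 were the only 2 of the 31 genes past the 2-fold rule, 1 higher and 1 lower in both single-drug comparisons. The rule was passed by 4% of 11611 genes at level with VPA and by 4.49% of 11593 with GEM, so 2 of 31 genes lies near the background. By direction the background was 1.9% higher and 2.09% lower with VPA, and 1.48% higher and 3.01% lower with GEM. At a limit of 1.5-fold, 8 of the 31 genes were lower with GEM against 11.1% of all genes, 3 were lower with VPA against 10.4%, and 2 were higher with GEM against 5.95%. At that limit 5 were higher in the combination over GEM against 11.9%, and 1 was lower in GEM over VPA against 1.99%.

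With VPA the sterol arm was near the background. Its median log2 ratio was -0.13, with 10 of 16 genes below 0, against a median of -0.05 and 55.3% below 0 over all genes at level. GEM was also compared directly with VPA. In GEM over VPA, 14 of the 16 sterol synthesis genes were below 0, against 47.3% of 11477 genes, with a median of -0.21 against 0.01 for all genes. The ratios were -0.38 for HMGCS1, -0.36 for CYP51A1, -0.35 for DHCR7 and -0.34 for SQLE, and the exceptions were MVK at 0.01 and TM7SF2 at 0.07. No gene of the set passed the 2-fold rule in this comparison, which 0.305% of all genes did. GEM was the array of lowest level for 14 of the 16 sterol synthesis genes, against 27.5% of 11808 genes at level on at least 1 array, and for 3 of the 9 fatty acid genes. How far these differences exceed array noise cannot be tested with 1 array per condition.

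**Figure D3:**
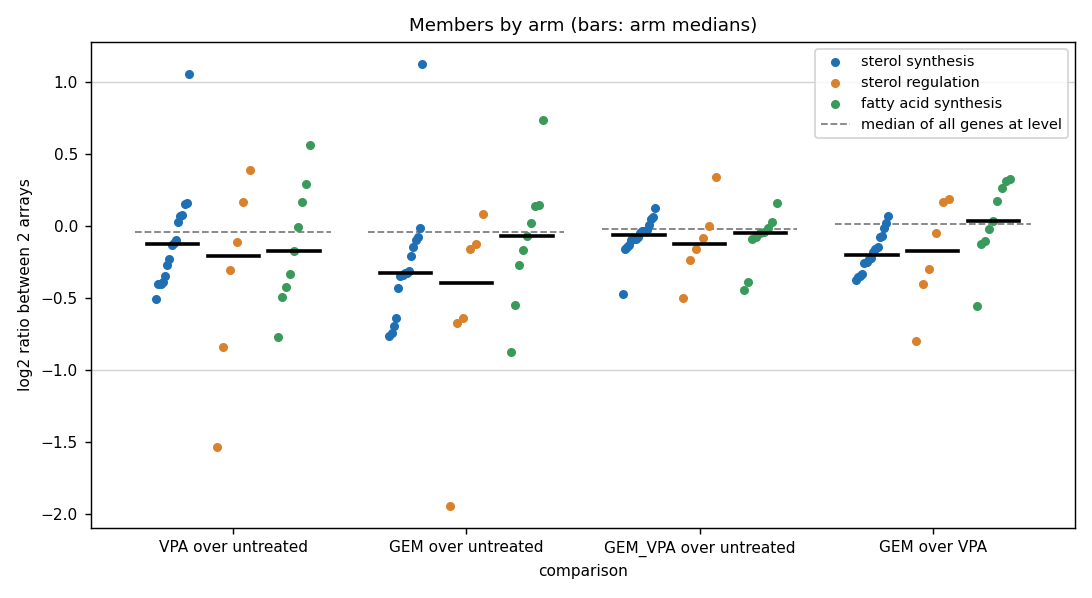
Log2 ratio between 2 arrays (vertical axis) for 4 comparisons (horizontal axis), 1 point per gene coloured by arm; black bars are arm medians, dashed lines the median of all genes at level, and pale lines the 2-fold limits. The sterol synthesis median is -0.33 for GEM over untreated and -0.21 for GEM over VPA, whereas the fatty acid medians there are -0.07 and 0.03.

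By its median, the fatty acid arm did not follow the sterol arm on the GEM array. Its median ratio of GEM over untreated was -0.07, with 5 of 9 genes below 0, and the sterol minus fatty acid difference of medians was -0.26. Single genes cut across this contrast, with SCD at -0.88 and FADS1 at -0.55 against AACS at 0.73. By means the arms stood closer, at -0.27 for sterol synthesis and -0.10 for fatty acid synthesis. In GEM over VPA the fatty acid median was 0.03, with 4 of 9 genes below 0, and the difference between the arms was -0.24. For VPA over untreated the medians were -0.13 for sterol and -0.18 for fatty acid genes, a sterol minus fatty acid difference of 0.05 that turned to -0.060 when the columns were quantile normalized again, so the arms were not told apart there. Genes within an arm are not replicates, and these differences are descriptions.

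The desaturases were below untreated on both single-drug arrays, SCD by the most. SCD, which makes monounsaturated fatty acids, was at 13.11 untreated, 12.33 with VPA, 12.23 with GEM and 12.72 with the combination. FADS1, the delta-5 desaturase, was at 11.33, 10.91, 10.78 and 11.28, and FADS2, the delta-6 desaturase, at 10.21, 9.88, 10.14 and 9.76. SCD was thus below untreated on every drug array, FADS1 on the single-drug arrays, and FADS2 was lowest on both arrays with VPA. Their ratios for VPA over untreated were -0.77, -0.42 and -0.34, and for GEM over untreated -0.88, -0.55 and -0.07.

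The chain-building enzymes were lowest or near their lowest with VPA. ACACA, the carboxylase that makes malonyl-CoA, was at 10.27, 9.78, 10.10 and 10.19 on the untreated, VPA, GEM and combination arrays. FASN, the fatty acid synthase, was at 11.45, 11.28, 11.59 and 11.36. ELOVL6, an elongase, stayed between 11.10 and 11.13. In GEM over VPA these genes stood at 0.33, 0.31 and 0.03, opposite in sign to the sterol enzymes for the first pair.

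The genes that supply acyl-CoA units were higher with VPA alone than without drug. In the combination over GEM, 2 of the 3 were lower, ACLY at -0.19 and AACS at -0.58, with ACSS2 at 0.25. ACLY, which splits citrate, was at 11.94, 12.10, 12.08 and 11.89 on the untreated, VPA, GEM and combination arrays. ACSS2, which activates acetate, was at 9.43, 9.72, 9.16 and 9.41, so it was highest with VPA and lowest with GEM. AACS, which activates acetoacetate and feeds both pathways, was at 9.19, 9.75, 9.93 and 9.35. AACS stood with TM7SF2 as a gene higher on both single-drug arrays, at ratios of 0.56 and 0.73. In VPA over untreated all 3 supply genes were above 0 and all 6 chain-building and desaturase genes were below 0. Over all genes at level 55.3% were below 0. ELOVL6 was below 0 by only -0.01, and the fatty acid genes below 0 went from 6 to 5 when the columns were quantile normalized again.

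The combination array was close to untreated for most of the set. Of the 31 genes, 0 passed the 2-fold rule over untreated, where 0.148% of 11489 genes did, and 24 of 31 were below 0 against 56.7%, at a median of -0.08 against -0.03 for all genes. The genes that stayed apart were SREBF1 at -0.50, ACAT2 at -0.48, FADS2 at -0.45 and SCD at -0.39, at ranks 79, 106, 129 and 228 from the lowest. INSIG2 at 0.34 was rank 555 from the highest. CYP51A1, SQLE and LSS were at -0.05, -0.08 and -0.04.

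Set against each drug alone, the combination array had higher sterol enzymes than GEM. This comparison, GEM over untreated, GEM over VPA and the count of genes lowest on the GEM array all use the same GEM array. They are therefore not independent results for the sterol arm. Over GEM, 15 of the 16 sterol synthesis genes were above 0 and 1 below, where 46.7% of all genes were below (median 0.21, all genes 0.03), with EBP at 0.76, CYP51A1 at 0.71 and SQLE at 0.66. INSIG1 was the 1 gene past the limit upwards and TM7SF2 the 1 downwards, where 3.6% and 1.78% of 11638 genes were. Over VPA, 7 of 16 were below 0 against 46% and the sterol median was 0.06 (all genes 0.03) and the same pair passed, against 1.48% and 1.68% of 11600 genes. The fatty acid medians were about 0 over GEM and 0.03 over VPA.

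The change with a drug was compared between pairs of arrays that share no array. For VPA, 20 of 31 genes had opposite signs without and with GEM, as did 74.3% of 11449 genes at level. For GEM, 20 of 31 had opposite signs without and with VPA, as did 84.8% of 11388 genes. These counts, 64.5% of the set each, lie below the shares among all genes. Across the 31 genes, which are not independent replicates, Pearson's r between the pairs was -0.73 for VPA and -0.86 for GEM (Spearman's rho -0.46 and -0.65). Over all genes at level r was -0.70 and -0.90, and without INSIG1 and TM7SF2 it was -0.37 and -0.64 over 29 genes. INSIG1 and TM7SF2 passed the 2-fold rule one way without the other drug and the opposite way with it, as did 1.8% of 11449 genes for VPA and 2.19% of 11388 for GEM. The departure from additivity, the amount by which the combination array exceeds the sum of both single-drug log2 ratios, was 3.24 for INSIG1, 1.26 for SCD, 1.15 for EBP, 1.12 for CYP51A1, 1.07 for SQLE, 1.01 for SREBF1, -1.14 for AACS and -2.31 for TM7SF2. These 8 of 31 genes reached 1 in either direction, against 20.3% of 11808 genes. Its median was 0.31 for sterol synthesis and -0.03 for fatty acid genes, against 0.07 over all genes.

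**Figure D4:**
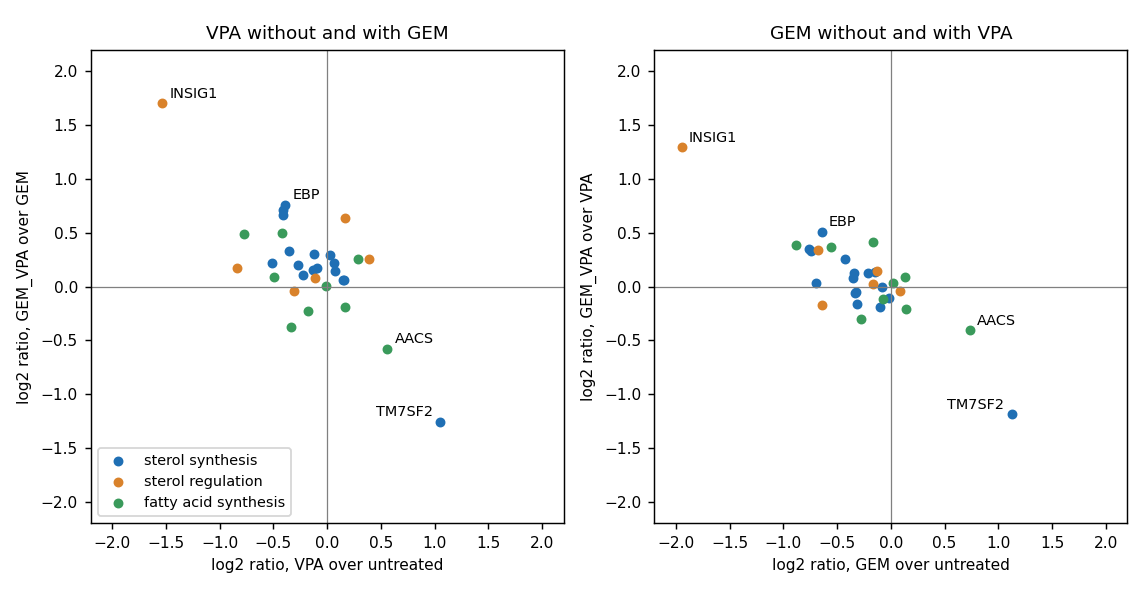
Log2 ratio with a drug in the absence of the other (horizontal axis) against the ratio in its presence (vertical axis), for VPA (left) and GEM (right); each point is 1 of the 31 genes, coloured by arm, and 4 are named. INSIG1 and TM7SF2 lie farthest from the origin, in opposite corners.

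Only an effect averaged over the 2 pairs of arrays per drug could be tested in a model. In an additive limma fit (residual degrees of freedom 1, Benjamini-Hochberg adjustment over 11808 genes), 0 of the 31 genes had an adjusted p under 0.05 for VPA or for GEM. The background was 0% for both drugs at that limit. In the same fit 0 of the 31 genes had an unadjusted p under 0.05. Over all 11808 genes that share was 0.186% for VPA and 0% for GEM, so these counts set the 31 genes apart in no way. The residual of that model is the departure from additivity, and the fit tests neither drug alone.

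The 6 MCM helicase genes, which unwind DNA for replication, stood farther from 0 than the medians of the set. All 6 were at least 2-fold lower on both single-drug arrays, at a median of -1.34 (VPA) and -1.42 (GEM), and their median was -0.12 for the combination over untreated. In GEM over VPA the MCM median was -0.13. Their part in the sterol result was not tested.

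Neighbouring lipid genes gave the setting for these values. Of 13 measured isoprenoid branch genes, 1 passed the rule with either drug, COQ2 of ubiquinone synthesis, at -1.06 with VPA and -1.15 with GEM; the list medians were -0.33 in both comparisons. Of 16 further elongation and desaturation genes, the elongase ELOVL3 was at -1.19 and the desaturase homologue FADS3 at 1.10 with GEM, and 0 passed with VPA, where FADS3 was at 0.98. Of 13 acyl-CoA activation and glycerolipid genes, 0 passed with either drug, and GPAM, the first acyltransferase of glycerolipid synthesis, was at 1.18 in the combination over GEM. Of 13 fatty acid oxidation genes, 0 passed with either drug and ACAA2, a thiolase, was at 1.09 in the combination over GEM. Sterol transport and storage genes (13 measured) had medians of 0.24 with VPA and 0.17 with GEM, and 0 passed. Genes of SREBP proteolysis, export and turnover (11 measured) had medians of 0.04 and 0.03, and genes of NADPH and citrate supply (7 measured) of -0.10 and -0.13, with 0 past the rule in each. In GEM over VPA, 11 of the 16 elongation and desaturation genes were below 0 (median -0.04). So were 9 of 13 glycerolipid genes (-0.12), 9 of 13 oxidation genes (-0.08) and 8 of 13 transport genes (-0.07). Proteolysis had 6 of 11, isoprenoid branches 4 of 13 and NADPH supply 2 of 7. ACAA2 at -0.74 and ELOVL3 at -0.57 lay below every sterol synthesis gene. Low ratios in that comparison were thus not confined to the sterol arm.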

How the data were processed

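Total RNA of HuCCT1 cells was hybridised to 4 arrays, 1 per condition. The values the authors deposited are log2 intensities, made with RMA per the submitters' processing notes; the series text names GeneSpring GX 11.5 as the normalizing software. RMA equalises arrays and compresses low values; array medians lay between 7.87 and 7.92. No genome build for the rows is stated. Rows were named from the platform annotation (19310 of 28869 rows had 1 symbol), and rows of a gene were averaged. Promoter windows came from RefSeq (GRCh38.p14) and were matched by symbol.

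Members and lists were chosen with earlier results of these data known. Every measured member could be named. From each other list at most 4 genes past the 2-fold rule in any comparison could be named, largest first. Exceptions were the marker genes named for the check of cell type, and LBR, TMEM97 and LPIN1, picked after values were seen. TMEM97 and LPIN1 did not pass the 2-fold rule in any comparison. Groups came from the labels. No single comparison was tested, for lack of replicates; the number of arrays limits precision. The additive model used limma 3.58.1 in R 4.3.3; other steps used Python 3.11.15 with numpy 2.4.6 and pandas 2.3.3. The counting rule and the model were checked on simulated data. The simulated drug effect was the same with and without the other drug, so the check did not cover data that depart from additivity as these do. Alternatives covered scaling, row choice, level filter, fold limit, list summary and the limma settings.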

Additional observations from a re-analysis of the deposited data

Results flagged for a closer look

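For 2 genes the change with a drug went one way without the other drug and the opposite way in its presence, past the 2-fold limit each time. Over all genes at level the share was 1.8% for VPA and 2.19% for GEM, and all 6 MCM helicase genes and KRT7 did the same for both drugs. The difference was not tested, since each change rests on 1 pair of arrays. INSIG1 had a log2 ratio of -1.54 with VPA in the absence of GEM and of 1.71 in its presence. For GEM its ratios were -1.94 without VPA and 1.30 with it. TM7SF2 had ratios of 1.05 with VPA in the absence of GEM and -1.26 in its presence, and of 1.12 with GEM in the absence of VPA and -1.19 in its presence.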

How the results depend on the processing

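No paired analysis was possible because each condition has 1 array. A value was taken as moved when it shifted by more than 0.10 on the log2 scale or, for a count, by more than 1.5 times. The limit of 0.10 is the spread per array taken from the closest pair, untreated and combination. That pair differs in treatment, so the limit is not a replicate error. A change of sign was labelled only for the called ratios of INSIG1 and TM7SF2, of which 0 changed sign. Of 287 values under the alternatives, 269 stayed within the limits of size and 18 moved. Many could not move, since each of the 31 genes had 1 row and lay at or above every median. Those were 67 values for the choice of row, 18 for members at level only, and 12 each for no level filter and the 25th percentile filter. Median centring also could not alter a difference between arms. After quantile normalization of the columns again, the fatty acid median for VPA over untreated was -0.059, the sterol minus fatty acid difference there -0.060, the sterol median for GEM over untreated -0.22, and the departure medians 0.22 for sterol regulation and -0.17 for fatty acid genes. The genes below 0 in the combination over GEM were then 2 for sterol synthesis and 2 for sterol regulation. Within the limit set for counts, the sterol synthesis genes lowest on the GEM array went from 14 to 11. Those below 0 for GEM over untreated went from 15 to 13. With arrays centred on their medians, the sterol regulation genes below 0 were 0 in the combination over GEM and 1 over VPA. By the mean in place of the median, sterol regulation stood at -0.37 for VPA and -0.58 for GEM over untreated, and at 0.47 and 0.27 for the combination over GEM and over VPA. With a limit of 1.5-fold, 3 genes were lower for VPA over untreated and 8 for GEM over untreated, with 1 for GEM over VPA, and genes higher were 2 for GEM over untreated and 5 for the combination over GEM; the shares of all genes were 10.4%, 11.1%, 1.99%, 5.95% and 11.9% in that order. The GEM over VPA sterol median was -0.20 under both other scalings. The median departure of all genes was 0.07 as deposited, 0.17 with median centring and 0.01 after the second quantile normalization. Signal over background was not given, so low differences cannot be set against detection.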

Other observations

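TM7SF2 shares its sterol reductase step with LBR, the lamin B receptor, a protein of the inner nuclear membrane. LBR was looked up after the values of TM7SF2 were seen. It was at 11.42 on the untreated array, 10.63 with VPA, 10.27 with GEM and 11.56 with the combination. LBR was thus low on both single-drug arrays, where TM7SF2 was high, with log2 ratios to untreated of -0.78 (VPA) and -1.15 (GEM).

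TMEM97 and LPIN1 are known SREBP targets outside the set, picked from the fixed lists after their values were seen. TMEM97, a sterol-binding membrane protein, was at 12.36, 11.89, 11.61 and 12.30 on the untreated, VPA, GEM and combination arrays. LPIN1, a phosphatidate phosphatase, was at 9.15, 8.78, 8.34 and 9.16. Both were lowest with GEM and second lowest with VPA, the order also seen for SQLE, CYP51A1 and EBP. As the pair was picked after its values were seen, this match is no support for that pattern. COQ2 and the MCM helicase medians over untreated (-1.34 with VPA, -1.42 with GEM) had the same order. The share of all genes with this order was not counted.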
